A study of Homo sapiens with 96 samples.

Results

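The data are 6 libraries of A549, a human lung adenocarcinoma cell line, 3 of cells given GSK591 and MS023 together for 2 days and 3 of cells given GSK591 alone for 2 days. They were chosen by their labels and compared on the splicing events that the deposited rMATS tables of both groups list with the same event type, chromosome, strand and coordinates. They are 6 of the 96 samples in the series, and the contrast asks what the second inhibitor changed in RNA splicing once the first was present. Every cell in the contrast therefore carried GSK591, at 1 µM, and the co-treated cells also carried MS023 at 1 µM. Beside them stand 3 libraries of cells given 1 µM MS023 alone for 2 days, 3 of cells in 0.01% DMSO, the vehicle, for 4 days, and 3 each of co-treated and GSK591-treated cells at 4 days. The only DMSO libraries set beside 2-day inhibitor groups were those of day 4, so the effect of MS023 alone includes any change between day 2 and day 4 in culture. All libraries were of poly(A) RNA from 1 established line, and no label or method says whether the 3 of a group came from separate cultures. The spread behind the p-values is therefore that between these libraries. For single events it was estimated partly from the other events of the same type, as described below.

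Arginine side chains of many RNA-binding proteins carry methyl groups placed by protein arginine methyltransferases (PRMTs). PRMT5, the main Type II enzyme, places them symmetrically, on the Sm proteins at the core of the spliceosome among others, and GSK591 inhibits it. Type I enzymes, with PRMT1 the most active in most cells, place them asymmetrically on hnRNP, FET and other glycine- and arginine-rich proteins, and MS023 inhibits that class. Splicing joins exons at a 5′ splice site, where the U1 snRNA pairs with RNA across the exon end, and a 3′ splice site. An exon whose sites are weakly recognised can be skipped.

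rMATS counts reads that fit each of the 2 forms of an event. The 5 kinds were an exon that is skipped or not (SE), a pair of exons used in turn (MXE, mutually exclusive), a choice between 3′ splice sites (A3SS), a choice between 5′ splice sites (A5SS) and an intron that is retained or not (RI). Inclusion, Ψ, is the share of transcripts with the longer form after correction for its greater length, from 0 to 1. For MXE it is the share with the exon nearer the 5′ end of the transcript. ΔΨ is the mean Ψ of the 3 co-treated libraries minus that of the 3 GSK591 libraries. Each event with 10 reads or more in each of the 6 libraries and with reads on both forms was tested with a quasi-binomial model of the 2 counts, with the dispersion moderated as in limma, and was called at a Benjamini-Hochberg adjusted p below 0.05 within its type. "Rose" and "fell" are used below of called events, and mean higher and lower inclusion in the co-treated libraries.

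The libraries held 64443084 to 91738315 reads summed over the shared events, a sum that counts a read once for every event it fits and so is not the sequencing depth. The deepest was the GSK591 library listed first in its table, called GSK591 library a here. That library stood apart in MXE events, with a median Ψ of 0.4555 against 0.4836 and 0.4817 in the other GSK591 libraries and 0.48 to 0.4833 in the co-treated ones. Read counts of replicate pairs differed beyond sampling noise, with a chi-square per degree of freedom of 2.05 to 2.06 among co-treated libraries and 2.47 to 3.17 among GSK591 libraries, and no pair was identical. Of 6 epithelial marker genes 5 had an event of 10 reads or more in all 6 libraries, the exception being KRT19, which had no listed event, and none of 8 markers of blood, endothelium or fibroblasts did. Gene expression is not in these tables, so Ψ describes the makeup of a gene's transcripts and not their amount.

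At 2 days, adding MS023 lowered the inclusion of more cassette exons than it raised. The split was near even at 4 days (1979 of 4092 called events higher). It was also toward falls for MS023 alone against DMSO (723 of 2512 called SE events higher). Of 57058 SE events tested in co-treatment against GSK591 at 2 days, 3196 were called, or 5.6%, in 2075 genes. Of these 2277 fell while 919 rose. The exons that fell were mostly ones that GSK591-treated cells nearly always included, with a median Ψ of 0.946 that went to 0.823. Those that rose were intermediate, with a median Ψ of 0.474 that went to 0.703. The median absolute ΔΨ of called exons was 0.0835, and 1370 changed by 0.1 or more, 387 upward and 983 downward.

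The sequences of 10 of these exons are printed first, because the base that ends the exon recurs below as a feature of the exons that fell. Capitals mark the exon and lower case the 20 intron bases on each side, on the transcribed strand, 5′ to 3′, in GRCh37 (hg19). All 10 are coding exons in the annotation of that build. The first 4 rose and the other 6 fell.
RALGPS2 (chr1:178861345-178861462, + strand): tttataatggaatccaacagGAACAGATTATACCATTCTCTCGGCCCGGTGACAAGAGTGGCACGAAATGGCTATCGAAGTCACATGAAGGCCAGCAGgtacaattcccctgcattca
KLC1 (chr14:104158676-104158782, + strand): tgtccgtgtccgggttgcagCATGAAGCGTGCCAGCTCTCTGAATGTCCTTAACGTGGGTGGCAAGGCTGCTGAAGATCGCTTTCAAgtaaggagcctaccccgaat
SEC31A (chr4:83752070-83752148, − strand): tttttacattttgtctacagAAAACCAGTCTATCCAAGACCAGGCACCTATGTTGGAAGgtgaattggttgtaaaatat
SRSF10 (chr1:24298043-24298133, − strand): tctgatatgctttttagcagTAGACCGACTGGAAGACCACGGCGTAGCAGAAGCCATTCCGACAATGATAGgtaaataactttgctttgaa
COL27A1 (chr9:117031501-117031594, + strand): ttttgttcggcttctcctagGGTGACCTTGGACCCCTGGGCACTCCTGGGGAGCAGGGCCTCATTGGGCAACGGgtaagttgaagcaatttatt
DONSON (chr21:34954451-34954572, − strand): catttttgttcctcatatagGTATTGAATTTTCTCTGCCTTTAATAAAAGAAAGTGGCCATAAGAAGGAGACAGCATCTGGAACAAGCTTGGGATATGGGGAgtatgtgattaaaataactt
RPTOR (chr17:78899150-78899300, + strand): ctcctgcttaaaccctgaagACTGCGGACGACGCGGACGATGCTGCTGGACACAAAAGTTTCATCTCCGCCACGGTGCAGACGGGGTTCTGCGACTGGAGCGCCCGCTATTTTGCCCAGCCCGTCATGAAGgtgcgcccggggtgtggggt
CHEK2 (chr22:29099473-29099574, − strand): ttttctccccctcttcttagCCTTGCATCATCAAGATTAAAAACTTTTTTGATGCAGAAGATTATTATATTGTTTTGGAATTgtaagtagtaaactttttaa
CDK10 (chr16:89759786-89759895, + strand): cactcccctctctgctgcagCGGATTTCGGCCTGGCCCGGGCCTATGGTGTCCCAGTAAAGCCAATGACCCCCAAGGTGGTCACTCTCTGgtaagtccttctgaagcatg
HNRNPK (chr9:86588797-86588908, − strand): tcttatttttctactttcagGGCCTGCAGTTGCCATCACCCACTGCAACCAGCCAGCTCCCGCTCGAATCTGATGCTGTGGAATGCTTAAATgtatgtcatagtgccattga

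**Figure D1:**
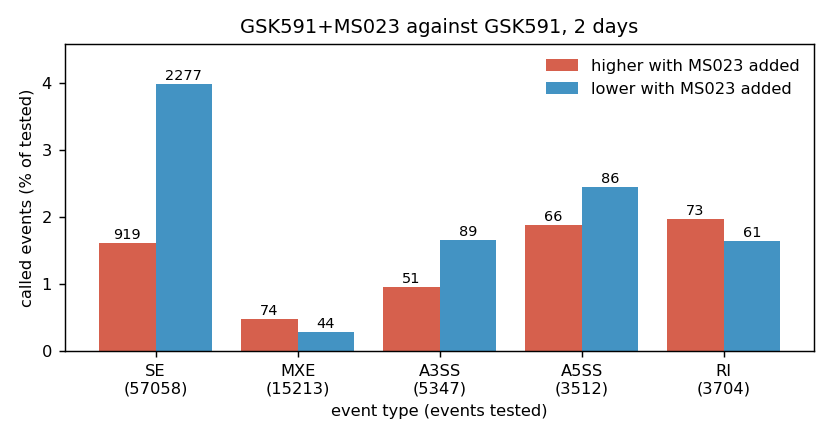
Bars give the share of tested events of each type (x axis, with the number tested) that were called at an adjusted p below 0.05, in percent (y axis), split into events with higher and lower inclusion in GSK591+MS023 than in GSK591 at 2 days. SE events were called most often and mostly lower, and MXE events least often.

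The exon with the highest rise among those named by a fixed rule was in ERCC8, which encodes the CSA protein of transcription-coupled DNA repair. This exon of 1607 nt (chr5:60187864-60189470, − strand) is annotated only in transcripts that are not protein coding. Its Ψ was 0.631, 0.727 and 0.689 in the co-treated libraries and 0.0987, 0.112 and 0.183 in the GSK591 libraries. The groups lay far apart, and the difference was 0.551 ± 0.0384 (SE, n = 3 and 3, adjusted p = 8.32e-63). A second long exon, the 1528-nt coding exon of LRIF1, a partner of nuclear receptors and heterochromatin proteins, had Ψ of 0.747, 0.652 and 0.656 against 0.191, 0.3 and 0.336. It rose by 0.409 ± 0.0535 (adjusted p = 4.21e-24).

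RALGPS2, an exchange factor for Ral GTPases, has a 78-nt exon whose Ψ was 0.546, 0.473 and 0.601 with both inhibitors and 0.0616, 0.166 and 0.157 with GSK591. Its sequence stands first above, and the exon keeps the reading frame. SEC31A encodes a subunit of the COPII coat that carries proteins out of the endoplasmic reticulum. Its 39-nt exon had Ψ of 0.819, 0.746 and 0.777 against 0.429, 0.366 and 0.416. The RALGPS2 exon rose by 0.412 ± 0.0497 (adjusted p = 2.16e-12) and the SEC31A exon by 0.377 ± 0.0285 (adjusted p = 4.87e-05).

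KLC1, a light chain of the kinesin motor, has a 67-nt exon at 0.76, 0.765 and 0.707 in the co-treated libraries and at 0.225, 0.32 and 0.462 in the GSK591 libraries. The GSK591 values spread over a wider range than the co-treated ones, and the exon rose by 0.409 ± 0.0712 (adjusted p = 8.18e-07). A 129-nt exon of TCP1, a subunit of the cytosolic chaperonin, rose from 0.385 ± 0.104 (SD, n = 3) to 0.748 ± 0.0669. A 64-nt exon of OSBPL7, of the oxysterol-binding protein family, rose from 0.59 ± 0.136 to 0.952 ± 0.0434. The 96-nt exon of CA5BP1 went from 0.57 ± 0.136 to 0.955 ± 0.0476, but CA5BP1 is a pseudogene with a close parent gene, so its counts are uncertain. Its adjusted p was 0.0508 when limma was run on log2 odds weighted by reads.

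Among exons that fell, the 54-nt exon of COL27A1, a fibrillar collagen, had Ψ of 0.0668, 0.119 and 0.141 with both inhibitors and 0.505, 0.74 and 0.514 with GSK591. This was the largest fall the naming rule returned, at −0.477 ± 0.08 (adjusted p = 7.05e-12). In DONSON, a component of the DNA replication machinery, an 82-nt exon that shifts the reading frame stood at 0.241, 0.17 and 0.223 against 0.802, 0.613 and 0.614. No co-treated library came near a GSK591 library, and ΔΨ was −0.465 ± 0.0663 (adjusted p = 9.94e-13).

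RPTOR encodes the scaffold of the growth-controlling kinase complex mTORC1. Its 111-nt exon had Ψ of 0.349, 0.325 and 0.331 in the co-treated libraries, which agreed closely, and 0.808, 0.848 and 0.652 in the GSK591 libraries. The exon fell by 0.434 ± 0.0603 (adjusted p = 7.2e-07), and the same exon appears among the MXE events below. The RNA-binding protein MSI2 (Musashi-2) lost a 73-nt exon, at 0.306, 0.29 and 0.354 against 0.756, 0.814 and 0.768. Its ΔΨ was −0.463 ± 0.0264 (adjusted p = 1.75e-21).

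A 152-nt exon of SEMA4F, a semaphorin guidance protein, fell from 0.94 ± 0.0234 to 0.527 ± 0.0588 (adjusted p = 2.09e-08). The 144-nt exon of C16orf74 fell from 0.942 ± 0.02 to 0.526 ± 0.122 (adjusted p = 1.09e-05). The other leading falls were of exons annotated only in transcripts that are not protein coding. The first lies in TCF25 (979 nt), with Ψ of 0.524 ± 0.0676 against 0.949 ± 0.0421. The other lies in RPS25, which encodes a protein of the small ribosomal subunit, where Ψ was 0.246 ± 0.0135 against 0.66 ± 0.00733. The replicates of RPS25 were tight, although ribosomal protein genes have processed pseudogenes that can share reads.

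**Figure D2:**
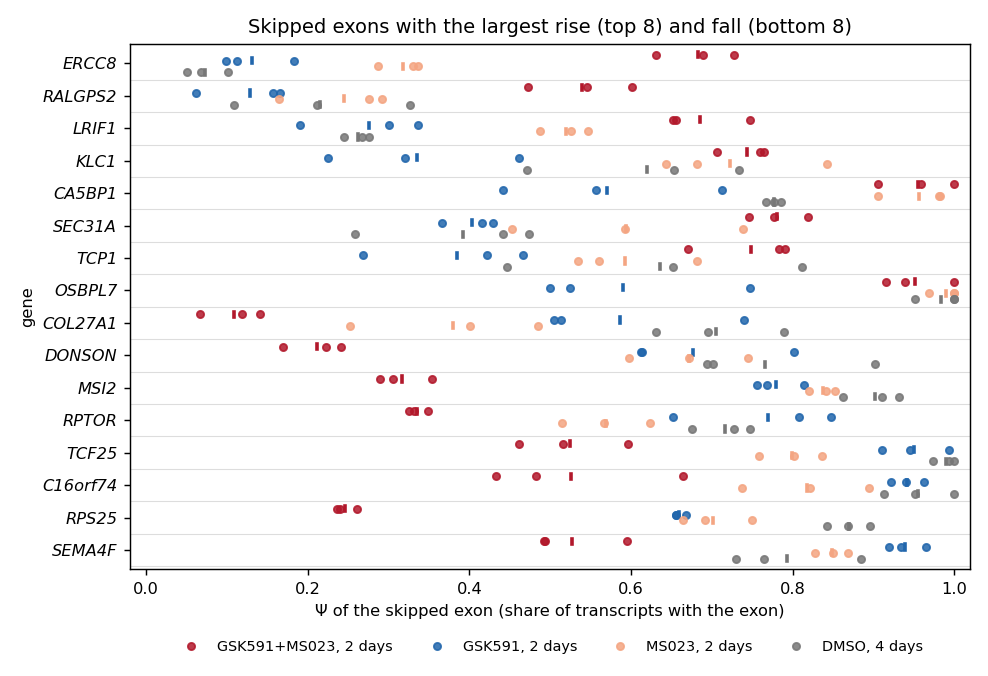
Points are the Ψ of single libraries (x axis, share of transcripts with the exon) for the 16 skipped exons named by rule (y axis, genes), with 3 libraries each of GSK591+MS023, GSK591, MS023 and DMSO. The co-treated and GSK591 points do not overlap for any of the 16, a property the naming rule required.

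These 16 exons stayed called when any single library of the 6 was left out. The total count did depend on the libraries and the test: it was 1560 to 1779 without 1 co-treated library, and limma on unweighted log2 odds called 0 of the 57058, with 5936 at an unadjusted p below 0.05 and adjusted p of 0.211 to 0.282 for these 16, while limma weighted by the reads behind each value called 2348. Keeping the 7598 events (11.8%) with reads on only 1 form in the fit, as the fixed design literally reads, left 17 calls.

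Whole event types moved little. The median Ψ of tested SE events was 0.9784 ± 0.000208 (SD, n = 3) in co-treated and 0.9837 ± 0.000965 in GSK591 libraries, and every co-treated library was lower (exact two-sided permutation p = 0.1, the smallest that 3 against 3 allows). For A3SS it was 0.845 ± 0.00269 against 0.8567 ± 0.00309 (exact permutation p = 0.1). The A5SS (exact permutation p = 0.2), RI (exact permutation p = 0.2) and MXE (exact permutation p = 0.9) medians overlapped between the groups. Of all tested SE events 57.6% had a lower mean in the co-treated libraries, against 71.2% of the called ones.

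The exons that fell differed from the rest at the 5′ splice site. Counting 1 event per exon, 43635 exons were tested, of which 753 rose and 1830 fell, and 98.4% of them lay between an AG and a GT. A G is the usual last base of a human exon, where it pairs with U1 snRNA, and it ended 79.1% of the tested exons, 82.1% of those that rose and 68.7% of those that fell. Read the other way, 8.18% of exons ending in T fell, 6.63% of those ending in C, 4.82% of those ending in A and 3.64% of those ending in G. The 4 groups of exons had a median of 228 to 238 reads and a median Ψ of 0.97 to 0.977.

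The same held within ranges of inclusion. Among exons with a mean Ψ of 0.8 to 0.95, 13.9% of the 1444 without a final G fell, against 7.26% of the 5000 with a final G. For Ψ of 0.5 to 0.8 the shares were 18.4% and 13.4%, for 0.05 to 0.5 they were 12.3% and 7.7%, and above 0.95 they were 3.29% and 1.85%. These are descriptions of the exons and no test was run on them. In the sequences above, the fallen exons of DONSON, CHEK2 and HNRNPK end in A, T and T, and those of COL27A1, RPTOR and CDK10 in G. Of the 8 leading falls named above 7 ended in G. Among exons called for MS023 alone against DMSO, 80.5% of those that rose and 77.8% of those that fell ended in G, and the difference from the exons that fell on top of GSK591 was not tested. A G at the third intron base followed 38% of fallen exons, 27.8% of risen ones and 33.2% of all. In the same order, the last exon base but 1 was A in 53.7%, 66.9% and 63.8%. The fourth intron base was A in 68.4%, 60.6% and 65.4%, and the fifth was G in 73.2%, 73.4% and 74.6%. The sixth was T in 54%, 42.9% and 48%. The strength of the whole site was not scored.

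Exons over 300 nt were 11.8% of those that rose, 5.63% of those that fell and 4.8% of those tested. At 4 days they were 6.74% of risen and 5.95% of fallen exons, and for MS023 alone 8.51% and 11.3%. Exons annotated only in transcripts that are not protein coding were 25.2% of risen, 12.1% of fallen and 14% of tested exons at 2 days, and 22.7% of risen and 13.2% of fallen exons at 4 days. A length that is a multiple of 3, which keeps the reading frame, was found in 47% of risen, 48.6% of fallen and 41.4% of tested exons. Tested exons with a mean Ψ of 0.05 to 0.95 are nearer in inclusion to the risen ones. Of these 5.87% were over 300 nt, 17.8% were annotated only in transcripts that are not protein coding and 44.2% had a multiple of 3. What part inclusion played in the shares was not tested. As motifs, 5 short words were searched on the transcribed strand, in the exon and in the 200 intron bases on each side. TGCATG, the RBFOX motif, lay after 6.64% of risen, 6.78% of fallen and 5.8% of tested exons. GAAGAA, a purine-rich enhancer word, lay in 13.5%, 10.3% and 12.8% of the exons themselves. TAGGG, a word bound by hnRNP A1, lay in 6.91% of risen, 3.88% of fallen and 3.43% of tested exons, and risen exons are longer. CTCTCT, a polypyrimidine word, preceded 10.5%, 13.4% and 11.6%, and GGGGG followed 20.1%, 17.4% and 18.2%. None of these counts shows that a factor bound.

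MXE events were called least often, 118 of 15213 or 0.776%, with 74 toward the exon nearer the 5′ end of the transcript and 44 toward the other. PUS1, a pseudouridine synthase, has exons of 112 and 103 nt whose first-exon share was 0.621, 0.604 and 0.534 with both inhibitors and 0.174, 0.171 and 0.227 with GSK591 (ΔΨ 0.396 ± 0.0323, adjusted p = 2.61e-05). IMMT, which shapes the cristae of mitochondria, moved the other way, at 0.629, 0.616 and 0.561 against 0.931, 0.947 and 0.92 (ΔΨ −0.33 ± 0.0223, adjusted p = 7.95e-05). In KIFC3, a minus-end kinesin, the share was 0.397 ± 0.0301 against 0.663 ± 0.0678 (adjusted p = 0.00176). All 3 stayed called without any single library.

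RPTOR rose by 0.218 ± 0.0202 in an event that sets a 184-nt exon against the 111-nt exon that fell as an SE event, so both readings show less of the 111-nt exon (adjusted p = 0.00442). WNK1, a kinase that regulates ion transport, rose by 0.201 ± 0.051 (adjusted p = 0.00417). The RPTOR and WNK1 calls were lost without co-treated library c. Those of SEC31A (ΔΨ 0.288), ARSA, a lysosomal sulfatase (−0.299), and CASK, a scaffold of cell junctions (−0.253), were each lost without any of 5 of the 6 libraries. Without GSK591 library a, which stood apart, 174 MXE events were called, 84 of them higher, so rises were not in excess without it. Without a co-treated library the count was 44 to 50, and unweighted limma called 14.

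Alternative 3′ splice sites changed in 140 of 5347 events (2.62%), 51 toward and 89 away from the longer exon. A fall here means that the downstream acceptor was used more. In NAGK, an N-acetylglucosamine kinase, sites lie 1049 nt apart, and Ψ was 0.393, 0.67 and 0.492 against 0.807, 0.859 and 0.898 (ΔΨ −0.336 ± 0.0852, adjusted p = 8.44e-05). The co-treated values spread widely but stayed below all GSK591 values. BMP1, the protease that trims procollagen, rose from 0.571 ± 0.0353 to 0.869 ± 0.0527 (adjusted p = 0.00313). Both stayed called without any 1 library.

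CACNA2D1, an auxiliary calcium channel subunit, used an acceptor 15 nt upstream more often, at 0.36, 0.354 and 0.34 against 0.151, 0.142 and 0.18. Its ΔΨ of 0.193 ± 0.0129 (adjusted p = 0.00445) was not called without co-treated library b or GSK591 library b. ZDHHC13, a palmitoyltransferase, fell by 0.417 ± 0.087 and DCXR, a carbonyl reductase, by 0.278 ± 0.0344, and these too lost the call without either of 2 libraries. Acceptors 3 nt apart made up 12.1% of the tested A3SS events but 0% of the risen and 2.63% of the fallen ones. Without co-treated library b 59 A3SS events were called, and 85 without GSK591 library c, and unweighted limma called 0 with 409 at an unadjusted p below 0.05.

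For alternative 5′ splice sites 152 of 3512 events were called (4.33%), 66 toward and 86 away from the longer exon. ENSA, an inhibitor of the phosphatase PP2A in mitosis, had the largest rise, with Ψ of 0.599, 0.727 and 0.715 against 0.224, 0.209 and 0.211 at sites 69 nt apart (ΔΨ 0.466 ± 0.0411, adjusted p = 3.6e-12). SNHG5, a noncoding host of small nucleolar RNAs, was read deeply, by 2865 reads or more in each library, and had Ψ of 0.54, 0.545 and 0.512 against 0.773, 0.765 and 0.798 (ΔΨ −0.246 ± 0.014, adjusted p = 4.88e-148). ZC3H11A, which takes part in mRNA export, rose from 0.417 ± 0.0912 to 0.738 ± 0.0622 at sites 105 nt apart in an untranslated exon (adjusted p = 1.02e-06).

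USP32, a deubiquitinase, rose from 0.257 ± 0.0142 to 0.499 ± 0.0136, and WDR60, of the dynein-2 motor of cilia, from 0.148 ± 0.0271 to 0.384 ± 0.0825. DCXR fell from 0.928 ± 0.0211 to 0.651 ± 0.0483 and GCNT2, a glycosyltransferase, from 0.65 ± 0.0842 to 0.391 ± 0.0761. ATP13A2, a lysosomal transporter of polyamines, fell from 0.773 ± 0.036 to 0.491 ± 0.049, and it alone of these 8 lost its call, without co-treated library b or GSK591 library c. Without co-treated library a the count of calls was 97, and unweighted limma called 0 with 301 at an unadjusted p below 0.05.

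Retained introns, given for reference, were called in 134 of 3704 events (3.62%), 73 higher and 61 lower. CCDC78 had the largest rise, with an intron read as retained in every co-treated library (Ψ of 1) and at 0.421, 0.585 and 0.691 with GSK591. A Ψ of 1 is the upper bound, and limma weighted by reads did not call this intron (adjusted p = 0.169). ECHDC2, a mitochondrial enzyme, fell by 0.436 ± 0.0703, a call lost without any of 4 libraries. GAS5, a noncoding host of small nucleolar RNAs, had Ψ of 0.132, 0.134 and 0.129 against 0.283, 0.31 and 0.345 for a 524-nt intron (ΔΨ −0.181 ± 0.0179, adjusted p = 5.8e-09). Without GSK591 library a 198 RI events were called, 83 of them higher, and without co-treated library b 40 were. Unweighted limma called 2 RI events, with 446 at an unadjusted p below 0.05.

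Genes that control splicing were among those whose own exons changed. Lists of genes were set by function, and over all event types 4.41% of the 84834 tested events were called, 1.39% higher and 3.01% lower, with a median ΔΨ of −0.000782. Well-read events pass a count test more easily, and the median reads of an event were 213 over all tested and 418 over all called events, so each list's median is given beside its count. What part depth played in the shares was not tested.

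Of 54 tested events in 10 SR protein genes, which bind exonic enhancers, 11 were called (20.4%), 5 higher and 6 lower, with a median of 667 reads and a median ΔΨ of −0.000482. The largest was a 51-nt coding exon of SRSF10, printed above, at 0.899, 0.861 and 0.83 with both inhibitors and 0.597, 0.659 and 0.66 with GSK591. It rose by 0.225 ± 0.0287 (adjusted p = 1.83e-06). In SRSF6 a 268-nt exon of noncoding transcripts, of the kind known as poison exons in this family, rose from 0.115 ± 0.0177 to 0.175 ± 0.0154 (adjusted p = 2.68e-08). A 36-nt coding exon of SRSF7 fell from 0.837 ± 0.0129 to 0.781 ± 0.021 (adjusted p = 1.05e-06).

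SR-like regulators had 24 called of 241 (9.96%, 11 higher and 13 lower, 596 reads, median ΔΨ −0.00129). Among them LUC7L, a U1 snRNP-associated protein, had a 70-nt exon at 0.0732, 0.0493 and 0.0595 against 0.204, 0.281 and 0.19. It fell by 0.164 ± 0.0291 (adjusted p = 1.46e-15).

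The hnRNP and PTB genes, many of whose proteins bind silencers, had 32 called of 287 (11.1%), 8 higher and 24 lower, with a median ΔΨ of −0.000576 and 2140 reads, the most of the 16 lists. HNRNPK lost a 72-nt coding exon, at 0.787, 0.768 and 0.764 against 0.885, 0.897 and 0.882 (ΔΨ −0.115 ± 0.00842, adjusted p = 3.31e-68). HNRNPM fell from 0.701 ± 0.0107 to 0.59 ± 0.0268 at a 54-nt exon and HNRNPR from 0.375 ± 0.0456 to 0.243 ± 0.0289 at a 166-nt exon. PTBP3, a paralog of the polypyrimidine tract binder, fell from 0.915 ± 0.0379 to 0.783 ± 0.0443 and lost its call without co-treated library b. HNRNPH1 had 6 called of 34 events, among them a 179-nt exon that fell from 0.972 ± 0.00283 to 0.913 ± 0.0201 (adjusted p = 2.79e-06).

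A list meant for RNA-binding proteins with arginine-glycine repeats, which are frequent PRMT substrates, had 31 called of 365 (8.49%). Of these 6 were higher and 25 lower, and the list had 682 reads and a median ΔΨ of −0.000819. Whether each member carries such repeats was not looked up. RBM3, a cold-inducible RNA-binding protein, lost a 269-nt exon of noncoding transcripts, at 0.515, 0.559 and 0.478 against 0.819, 0.789 and 0.842 (ΔΨ −0.299 ± 0.028, adjusted p = 6.59e-09). G3BP2, of stress granules, fell from 0.338 ± 0.0183 to 0.205 ± 0.00878 at an untranslated exon. Exons of PSPC1 and TIA1 went the other way. PSPC1 rose from 0.354 ± 0.0535 to 0.572 ± 0.103 (adjusted p = 0.0047), and TIA1 from 0.594 ± 0.0108 to 0.727 ± 0.0323 (adjusted p = 0.0466). Sm and snRNP proteins had 25 called of 392 (6.38%), 3 higher and 22 lower, with 737 reads and a median ΔΨ of −0.000371. PRPF3, of the U4/U6 snRNP, fell from 0.972 ± 0.00648 to 0.887 ± 0.0151 (adjusted p = 9.06e-11). An A3SS event of SNRPB, which encodes the SmB proteins, rose from 0.759 ± 0.0207 to 0.821 ± 0.00632 (adjusted p = 5.35e-22). Its longer exon as a whole matched no annotated exon, and whether its acceptors are annotated was not looked up.

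The mRNA export factors had 9 called of 152 (5.92%, 6 higher, 308 reads, median ΔΨ −0.000838). CHTOP, an export adaptor that is methylated by PRMT1, had 2 of 6. Its 138-nt coding exon rose from 0.86 ± 0.00723 to 0.927 ± 0.0201 (adjusted p = 3.53e-05), and a retained intron went from 0.116 ± 0.0398 to 0.0645 ± 0.00679 (adjusted p = 0.00906), a call lost without any of 3 libraries. NCBP2, a cap-binding protein, fell by 0.171 ± 0.0475 at an alternative 5′ splice site. Of 126 events in 14 genes of the PRMTs and their cofactors 10 were called (7.94%, 3 higher, 317 reads, median ΔΨ −0.00041), in 5 genes.

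CARM1, itself a Type I enzyme, had an exon of noncoding transcripts at 0.621, 0.803 and 0.562 against 0.894, 1 and 0.949. It fell by 0.286 ± 0.0787 (adjusted p = 2.34e-11). The 48-nt coding exon of PRMT7, the Type III enzyme, was at 0.974, 0.973 and 1 against 0.791, 0.694 and 0.69, and rose by 0.257 ± 0.0342 (adjusted p = 0.000865). CLNS1A, the pICln subunit that brings Sm proteins to PRMT5, fell from 0.967 ± 0.0162 to 0.918 ± 0.0129 (adjusted p = 1.1e-06). An exon of PRMT5 itself went from 0.99 ± 0.00677 to 0.966 ± 0.0216 (adjusted p = 0.0342), a call lost without any of 4 libraries.

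Genes known for cassette exons that differ between epithelial and mesenchymal cells had 83 called of 742 events of any type (11.2%, 31 higher and 52 lower, 326 reads, median ΔΨ −0.000719), in 31 of 45 genes. RALGPS2 and SEC31A belong to this list. A variable exon of the adhesion receptor CD44 rose by 0.451 ± 0.111, a call lost without any of 4 libraries. Genes with known mutually exclusive exons had 25 called of 292 (8.56%, 11 higher, 486 reads, median ΔΨ −0.000323), among them a 76-nt exon of the tropomyosin gene TPM1 that fell from 0.629 ± 0.0088 to 0.51 ± 0.0177 (adjusted p = 3.13e-07).

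DNA repair genes had 30 called of 1168 (2.57%), below the share over all events, with 6 higher and 24 lower, 128 reads and a median ΔΨ of −0.00234. CHEK2, the checkpoint kinase, lost a 62-nt frame-shifting exon, at 0.539, 0.461 and 0.381 against 0.87, 0.754 and 0.851 (ΔΨ −0.365 ± 0.0582, adjusted p = 4.25e-08). OGG1, which removes oxidised guanine, fell from 0.909 ± 0.0254 to 0.668 ± 0.0567 (adjusted p = 5.96e-05).

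Transcription kinases and cyclins had 7 called of 172 (4.07%, 2 higher, 200 reads, median ΔΨ −0.00349). CDK10, a kinase partner of cyclin M, had a 70-nt exon that shifts the frame at 0.387, 0.469 and 0.473 against 0.83, 0.837 and 0.818. The exon fell by 0.386 ± 0.0284 (adjusted p = 9.58e-06). An alternative 5′ splice site in the same gene fell by 0.113 ± 0.00919 (adjusted p = 0.0063).

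The remaining lists had 2.2% to 6.09% of their events called. Mitosis genes had 61 called of 1325 (4.6%, 22 higher, 226 reads, median ΔΨ −0.00167), with an 807-nt exon of SGOL1, the shugoshin that guards centromeric cohesion, up by 0.232 ± 0.042. Genes of p53 and apoptosis had 14 of 230 (6.09%, 3 higher, 231 reads, −0.00326), with FIS1, a mitochondrial fission factor, down by 0.122 ± 0.0157. Nonsense-mediated decay factors had 5 of 156 (3.21%, 1 higher, 222 reads, −0.000448), with RNPS1 up by 0.0747 ± 0.0157. Splicing kinases had 2 of 91 (2.2%, both higher, 177 reads, 0.00101), in CLK3 and in DYRK2, whose call was lost without any of 5 libraries. Histone lysine methyltransferases and demethylases had 13 of 473 (2.75%, 7 higher, 157 reads, 5.04e-05), with EHMT1 down by 0.191 ± 0.0186 and WHSC1 up by 0.254 ± 0.0787.

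Among genes the study follows, GAS5 had 15 called of 120 events, 4 higher and 11 lower. ANKZF1, of ribosome quality control, had 0 of 10, and its intron with the lowest p was at 0.0717, 0.081 and 0.0305 against 0.148, 0.101 and 0.0966 (adjusted p = 0.35). NOP2, an RNA methyltransferase, had 0 of 9, with its leading intron at 0.434, 0.475 and 0.494 against 0.543, 0.551 and 0.489 (adjusted p = 0.135). The introns printed for GAS5, ANKZF1 and NOP2 were picked by p-value. Whether they are the introns that the study measured was not looked up.

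The contrast at 4 days rests on separate libraries and so shares none with that at 2 days. There 7.46% of SE events were called, 5.71% of MXE, 3.33% of A3SS, 5.59% of A5SS and 9.19% of RI. The directions were not split as at 2 days: 1979 of 4092 called SE events were higher, against 919 of 3196, and 280 of 807 MXE events, against 74 of 118. Unweighted limma called 0 SE, 26 MXE, 0 A3SS, 6 A5SS and 6 RI events at 4 days, with 6699 SE events at an unadjusted p below 0.05. Of the 3152 SE events called at 2 days with a value at 4 days, 2831 moved the same way (89.8%, against 56.3% of all tested), and 1470 of the 3125 tested there were called in the same direction and 16 in the opposite one. The same direction held for 97.3% of MXE, 92.8% of A3SS, 91.4% of A5SS and 96.3% of RI events called at 2 days. Over all tested events of these types the shares were 56.2%, 55.4%, 58.7% and 62%.

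The ERCC8 exon differed by 0.597 at 4 days (adjusted p = 2.89e-45) and the RALGPS2 exon by 0.509 (adjusted p = 5.93e-20). ENSA differed by 0.585 (adjusted p = 9.6e-14) and PUS1 by 0.5 (adjusted p = 5.56e-30). Others did not pass the test at 4 days, as with CHEK2 at −0.0709 (adjusted p = 0.489), ZC3H11A at 0.0738 (adjusted p = 0.341), ATP13A2 at 0.0303 (adjusted p = 0.906) and SEMA4F at −0.0494 (adjusted p = 0.581). The difference between the 2 days was not tested.

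For MS023 given alone, against DMSO, the test called 3.75% of SE, 1.04% of MXE, 2.44% of A3SS, 3.87% of A5SS and 5.83% of RI events, in libraries that the contrast of co-treatment and GSK591 does not use. Of the 2512 SE events called for MS023 alone, 723 were higher, against 919 of 3196 on top of GSK591. Unweighted limma called 0 SE, 5 MXE, 0 A3SS, 4 A5SS and 0 RI events here, with 5546 SE, 462 A3SS and 458 RI events at an unadjusted p below 0.05. Of 3156 SE events called for MS023 on top of GSK591, 2574 had the same sign for MS023 alone (81.6%, against 57.8% of all tested), and 865 of 3148 were called in that direction. The shares of the same sign were 92.2% for MXE, 82.6% for A3SS, 77% for A5SS and 85.1% for RI. Over all tested events of these types they were 57.2%, 53.9%, 56.3% and 57.7%. Sizes were smaller without GSK591: the median ΔΨ of the SE events that fell was −0.0838 on top of GSK591 and −0.017 alone, though the called events were chosen on the first of these. The RBM3 exon fell by 0.271 with MS023 alone (adjusted p = 4.05e-07), while the exons of RALGPS2 at 0.0287 (adjusted p = 0.745) and OSBPL7 at 0.00621 (adjusted p = 0.908) did not pass.

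The 4-day libraries of GSK591 and DMSO give the sign of the GSK591 effect itself without sharing any library with the 2-day contrast. Of SE events that rose with added MS023, 46.3% were higher with GSK591 than in DMSO, against 44.3% of all tested events with a positive ΔΨ. Of those that fell 71.6% were lower, against 59.2% of all tested events with a negative one. The mean Ψ of the OSBPL7 exon was 0.984 in DMSO and, at 2 days, 0.59 with GSK591, 0.952 with both and 0.99 with MS023. For SRSF10 the order was 0.914, 0.639, 0.863 and 0.949. In both, the GSK591 mean was below those of the other 3 groups, and the interaction described below was not called (adjusted p = 0.622 and 0.528). The DONSON exon ran 0.766, 0.676, 0.211 and 0.672, and the CHEK2 exon 0.758, 0.825, 0.46 and 0.768. Their lowest mean was that of co-treatment, and the interaction was not called for either (adjusted p = 0.22 and 0.0571).

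**Figure D3:**
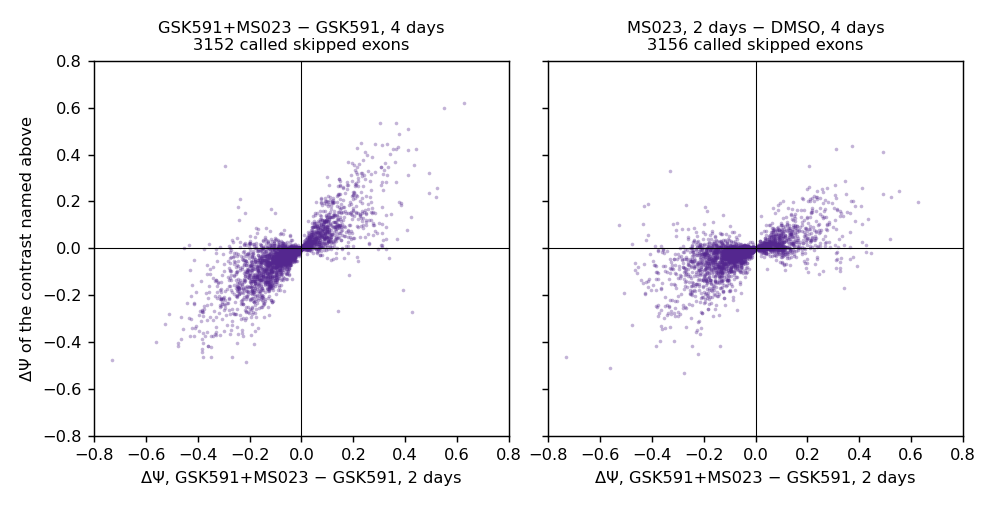
Each point is an SE event called in GSK591+MS023 against GSK591 at 2 days, with its ΔΨ there (x axis) and its ΔΨ in libraries that contrast does not use (y axis), on the left the same contrast at 4 days and on the right MS023 at 2 days against DMSO at 4 days. On the left 89.8% of 3152 points and on the right 81.6% of 3156 lie in the quadrants of equal sign.

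Whether MS023 acted differently with GSK591 present was tested directly, as an interaction over the 4 groups of GSK591+MS023, GSK591, MS023 and DMSO. This interaction was fitted on the log odds of the 2 forms, so its p-values do not test the differences in ΔΨ given below. It was called for 57 of 59715 SE events (0.0955%), 10 MXE (0.0741%), 3 A3SS (0.0551%), 11 A5SS (0.309%) and 23 RI events (0.616%). Limma on log2 odds called 0 in all 5 types, with 3590 SE events at an unadjusted p below 0.05. In 36 of the 57 SE events the 2 effects of MS023 had opposite signs, while 57.8% of all SE events tested in co-treatment against GSK591 had the same sign. Of the 57, 47 were also called in that contrast, against 5.6% of all its tested SE events. Selection by the interaction favours opposite signs and uses the same libraries, so neither count is separate support.

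The genes named for this interaction were picked after their values were seen, except MSI2, SEMA4F and HNRNPK. Those were named for their called change on top of GSK591, in libraries that the interaction uses again. An exon of 108 nt in LPIN1, a lipid phosphatase, was at 0.818, 0.882 and 0.868 with both inhibitors, at 0.577, 0.508 and 0.501 with GSK591, at 0.491, 0.578 and 0.525 with MS023 and at 0.559, 0.598 and 0.606 in DMSO. Only the co-treated libraries stood high, and the 2 effects of MS023, 0.327 and −0.0563, differed by 0.383 (adjusted p = 7.59e-05). The 39-nt exon of PCBP2, a poly(C)-binding hnRNP, had a mean of 0.155 with both, 0.273 with GSK591, 0.645 with MS023 and 0.635 in DMSO, so that MS023 lowered it by 0.117 with GSK591 while its ΔΨ with MS023 alone was 0.00933 (difference −0.127, adjusted p = 7.59e-05).

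The reverse occurred too. A 36-nt exon of HNRNPA2B1 was at a mean of 0.274, 0.252, 0.37 and 0.232 in the same order, and MS023 raised it by 0.138 alone and by 0.0215 with GSK591 (difference −0.116, adjusted p = 7.73e-06). A 22-nt exon of RPS24, of the small ribosomal subunit, ran 0.0693, 0.0752, 0.303 and 0.185. It passed the test with MS023 alone, at 0.118, and not with GSK591, at −0.00587 (adjusted p = 0.415), and the difference was −0.124 (adjusted p = 0.000139). ANXA2, an annexin, had opposite signs at an 81-nt exon, −0.0796 with GSK591 and 0.0241 without (difference −0.104, adjusted p = 7.59e-05). TMX2 at 0.0569 and −0.126 did too, although its change on top of GSK591 did not pass (adjusted p = 0.0532), and the difference was 0.183 (adjusted p = 0.000507). For MSI2, SEMA4F and HNRNPK the effect of MS023 with GSK591 minus that without was −0.4, −0.469 and −0.0876.

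**Figure D4:**
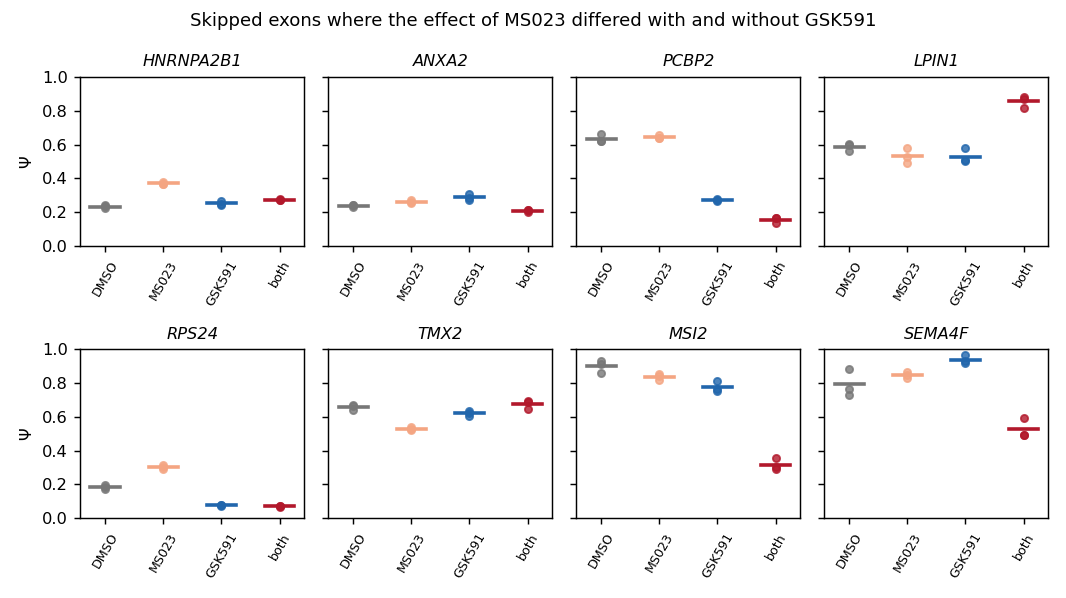
Points are the Ψ of single libraries (y axis, share of transcripts with the exon) in DMSO, MS023, GSK591 and GSK591+MS023 (x axis, 3 libraries each) for 8 skipped exons whose MS023 effect differed with and without GSK591 by the interaction test. LPIN1 is high only with both inhibitors, PCBP2 is low in both GSK591 groups, and HNRNPA2B1 is high with MS023 alone.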

How the data were processed

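Poly(A) RNA of A549 cells was sequenced in 3 libraries per group. Per the labels and methods, the authors trimmed reads with Trim Galore 0.6.5, aligned them to hg19 with STAR 2.4.2a and counted events with rMATS. Picard 2.3.0 and deepTools 3.3.1 are also named in the submitters' processing notes. The deposited tables hold, for each event and group, lists of inclusion and skipping read counts, 1 per library, not normalized, and effective lengths. The columns with the authors' p-values, FDR and inclusion differences were not used. Each table pairs 3 DMSO libraries of day 4 with 3 inhibitor libraries. Columns of per-sample values that matched no group numbered 0. Libraries are named a to c by their order in the list, since the lists carry no replicate numbers.

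Events were joined on type, chromosome, strand and coordinates. Ψ is inclusion count over inclusion length, divided by the sum of that and skipping count over skipping length. Events needed 10 reads in each of the 6 libraries. Events with reads on only 1 form were left out of the fit (SE 7598, MXE 121, A3SS 274, A5SS 235, RI 94), a choice made after seeing the data. In R 4.3.3 each event's pair of counts was fitted by quasi-binomial logistic regression. Dispersions were moderated with squeezeVar (limma 3.58.1), with a floor of 1, and F test p-values were adjusted by Benjamini-Hochberg within the type. The same fit was run at 4 days, for MS023 against DMSO, and with an interaction term. It was tested on simulated data. The named events were, per type, called events with an absolute ΔΨ of 0.1 or more, 50 reads per library on average and no overlap of the 3 and 3 values, 1 per gene: the 8 highest and 8 lowest SE, 4 and 4 for MXE, A3SS and A5SS and 2 and 2 for RI. To these were added up to 4 called events of each of the 16 lists and 6 genes the study names. The events, lists and tests were chosen with earlier results of these data known. Exon sequences and annotation came from the GRCh37 reference, and 99.6% of the 43635 tested exons matched an annotated exon. Errors are spreads over libraries. The result for 1 item is not reported here.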

Additional observations from a re-analysis of the deposited data

Results flagged for a closer look

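Of the named exons, 3 had an effect of MS023 that differed by the interaction test with and without GSK591. All 3 had been named for their change on top of GSK591. The interaction uses those libraries again, so it is not separate support for them. The MSI2 exon had a ΔΨ of −0.463 on top of GSK591 and −0.0631 without it, a difference of −0.4 (adjusted p = 0.0261). For the SEMA4F exon the effects were −0.413 and 0.0559, which differed by −0.469 (adjusted p = 0.0106), and at 4 days the added effect was −0.0494 (adjusted p = 0.581). For HNRNPK they were −0.115 and −0.0276, a difference of −0.0876 (adjusted p = 0.0131). These p-values are for the interaction on log odds and not for the differences in ΔΨ. The DMSO libraries were of day 4, and limma on log2 odds called none of the 3 interactions.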

How the results depend on the processing

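Counts of calls depended most on how the spread between 3 libraries was estimated. Without moderation of the dispersion 0 events were called in any type (unadjusted p below 0.05: SE 4968, MXE 1029, A3SS 318, A5SS 271, RI 370). Unweighted limma on log2 odds called 0 SE (5936), 14 MXE (1509), 0 A3SS (409), 0 A5SS (301) and 2 RI (446). It called 0 SE, 26 MXE, 0 A3SS, 6 A5SS and 6 RI at 4 days (6699, 1722, 528, 397 and 619), 0 SE, 5 MXE, 0 A3SS, 4 A5SS and 0 RI for MS023 against DMSO (5546, 1308, 462, 341 and 458), and 0 interactions in each type (3590, 881, 341, 251 and 282). Added after seeing the data, limma weighted by reads called 2348 SE, 2179 of them among the 3196, 92 MXE, 97 A3SS, 114 A5SS and 104 RI. A dispersion trend on reads, also added, gave 1951 SE and 240 MXE. Keeping events of 1 form left 17 SE, 26 MXE, 0 A3SS (441 at an unadjusted p below 0.05), 1 A5SS and 4 RI. Requiring an absolute ΔΨ of 0.1 left 1370 SE, 54 MXE, 49 A3SS, 69 A5SS and 44 RI. A mean Ψ of 0.05 to 0.95 gave 2020 SE and 78 MXE, and adjustment over all types 239 MXE. Without 1 library in turn the counts were 1560 to 2472 SE, 44 to 174 MXE, 59 to 120 A3SS, 97 to 123 A5SS and 40 to 198 RI. SE calls fell by over 1.5 times without any of the co-treated libraries, 1660 without a, 1560 without b and 1779 without c, and none without a GSK591 library. MXE fell to 48, 44 and 50 and RI to 68, 40 and 66 in that order. The cause of these changes was not tested, and fewer libraries are part of each. Of 112 named events none reversed under any alternative run, 77 to 96 stayed on the same side of the threshold without 1 library, and of the called ones unweighted limma called 3 (PUS1, IMMT and CCDC78). Limma weighted by reads did not call CCDC78 (adjusted p = 0.169). Ψ without the length correction moved 42 of the 112 by more than the spread. Minimums of 1 or 20 reads changed no count of calls by over 1.5 times. No paired analysis was possible because the count lists carry no replicate numbers.

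With 3 libraries a group an exact test of a single value cannot go below p = 0.1, so the calls rest on dispersion shared across events. Events of 1 gene share reads and are not independent, and 3196 SE calls lie on 2961 exons. Exons in few transcripts, at under 50 reads a library, gave 184 of the SE calls.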
